A study of Mus musculus with 17 samples.

Results

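The transcripts of 32 genes of the postsynaptic density and of synaptic adhesion were followed in mouse cortex, out of 55453 gene symbols in the deposited table. Members were taken by symbol, with no cut on measured values, from a list of postsynaptic scaffold, signalling and adhesion genes. The list leaves out the Shank genes and dendrin, and it was chosen with earlier results of these data known. All 32 were found and all 32 passed the filter on low values (a mean of at least 1 TPM, the length-adjusted share of a transcript in its library), among 16265 genes that did. The postsynaptic density is the protein mesh under the membrane of excitatory synapses. In it, scaffolds of the membrane-associated guanylate kinase (MAGUK) family hold glutamate receptors in place and, through adaptors of the Dlgap (SAPAP) and Homer families, connect them to signalling enzymes and to the actin skeleton of the dendritic spine. Adhesion proteins of the neuroligin and Lrrtm families reach across the cleft and bind neurexins on the presynaptic side, and gephyrin is the corresponding scaffold of inhibitory synapses.

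Bulk cortex was collected from 17 male C57BL/6J mice in 6 groups to learn how changes in hnRNPH2, whose X-linked gene encodes a protein that binds RNA and acts in splicing, affect the brain transcriptome. Hemizygous Hnrnph2 knockout mice (KO, a line with a frameshifting indel) and hemizygous mice with the R206W substitution were 8 weeks old, with 3 mice each and 3 wild-type littermates from each line. Hemizygous mice with the P209L substitution (3 mice) and wild-type mice of their line (2 mice) were 3 weeks old. Both substitutions were put into the endogenous gene, so every cell carries the allele, and each genotype comes from a single line. Age and line are the same split for the P209L mice and cannot be told apart. Values are given in TPM, and differences between groups are on the log2(TPM + 1) scale with their standard error (SE). The p-values come from limma with Benjamini-Hochberg adjustment over all genes tested, a threshold of 0.05, and an error that is the spread between these mice.

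Hnrnph2 itself stood at 23.5, 21.3 and 24.4 TPM in KO mice and at 80.5, 145 and 139.7 TPM in their controls, a log2 difference of -2.30 ± 0.17 (SE) by limma (adjusted p = 8.64e-06). No marker of the excitatory, inhibitory or general neuron lists was listed at 0 over the 17 mice. Cerebellar markers summed to at most 8.42 TPM, a value of a KO mouse, and to at most 0.53 TPM in the other groups. A P209L control held choroid plexus markers at 1764 TPM, against at most 25.9 TPM in the mice aged 8 weeks. KO control 1 stood apart in its mitochondrial share and its scale. KO control 1 gave 20.1% of its TPM to mitochondrially encoded genes, against 10.7% to 15.4% in the other 16 mice, and its size factor was 0.79 against 0.86 to 1.12. For 25 of the 32 members KO control 1 was the lowest of the 12 mice aged 8 weeks, and the same held for 62.1% of all genes tested. After division by median-of-ratios size factors, which bring the typical gene of each library to the same level, it was the lowest for 14 members. Results over all members that rest on the KO controls are therefore also given without it, while many single genes are given only with it. The fit shares its error for each gene over all 6 groups, so KO control 1 also enters the error of comparisons without KO controls. For Sipa1l1 in P209L mice, leaving it out kept the difference at 0.69 and moved the adjusted p from 0.264 to 0.0375 by limma. Sequencing depth is unknown for TPM values, so no counting error can be given.

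In wild-type cortex at 8 weeks the levels of the members differed widely. Among the MAGUK scaffolds, Dlg4 (PSD-95, the principal scaffold of excitatory synapses) had the highest level of all members, with a mean of 450.0 ± 52.8 TPM (SD, n = 6). Nsmf (Jacob, a messenger between synaptic NMDA receptors and the nucleus) followed with 386 ± 11.9 TPM (SD, n = 6). The next in order were Camk2b (the beta subunit of CaMKII, a calcium-dependent kinase of the spine) with 288 ± 60.5 TPM (SD, n = 6) and Kalrn (kalirin, an exchange factor for Rac) with 268 ± 54.4 TPM (SD, n = 6). The ranges of Camk2b and Kalrn overlapped over the 6 mice. The adhesion genes Nlgn1, Nlgn3, Lrrtm1, Lrrtm3 and Lrrtm4 lay between means of 26.0 and 33.2 TPM, and Homer3 was lowest with 5.12 ± 0.29 TPM (SD, n = 6). The members varied within groups by a median SD of 0.24 on the log2 scale, against 0.19 over all genes tested, and by 0.16 when the KO mice and their controls were left out. Nsmf was the steadiest member (SD of 0.048) and Synpo (synaptopodin, an actin-binding protein of the spine apparatus) the most variable (0.35). Synpo stood at 69.6, 78.0 and 135 TPM in the KO mice and at 60.5, 116 and 125 TPM in their controls, so that each of these groups held both a low and a high mouse.

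**Figure D1:**
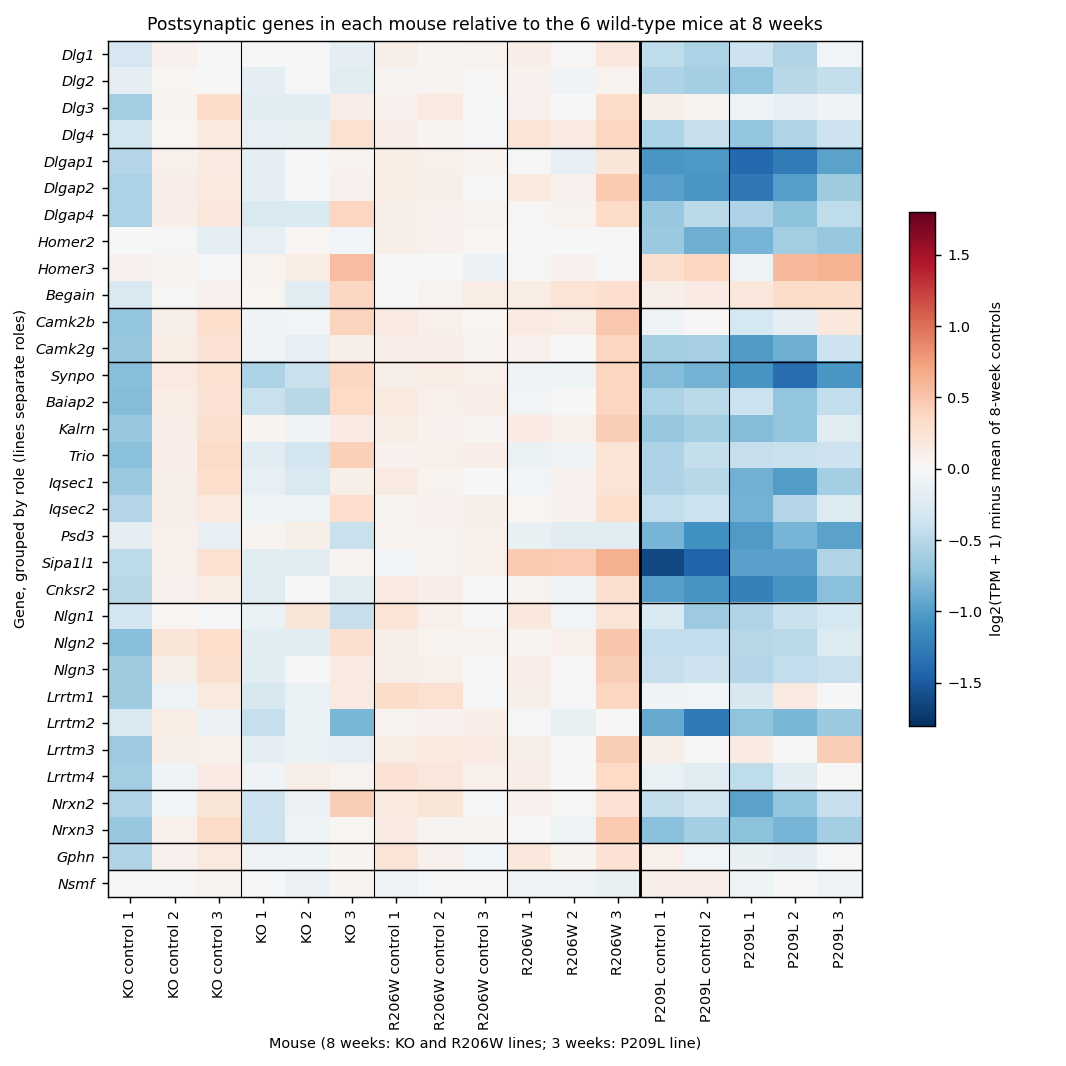
Heat map of the 32 members (rows, grouped by role) in each of the 17 mice (columns), as log2(TPM + 1) minus the mean of the 6 wild-type mice at 8 weeks, with red for higher and blue for lower. Most rows are blue in the 5 mice aged 3 weeks on the right, KO control 1 is blue in most rows, and the Sipa1l1 row is red in the R206W mice.

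Between 3 and 8 weeks many postsynaptic genes differed in wild-type mice. Every member past the threshold on the TPM scale was lower at 3 weeks, while 6 of the 32 had a difference above 0. Of the 32 members, 17 were lower at 3 weeks (53.1%) and none was higher by limma, where 24.8% of all genes tested were lower and 11.3% higher. The median member difference was -0.50 on the log2 scale, beside -0.12 over all genes. Without overlap between the ages, 11 members were lower and 2 higher (Homer3 and Nsmf), where 21.5% and 16.7% of all genes were. By role, 3 of 4 MAGUK scaffolds, 4 of 6 adaptors, 1 of 2 CaMKII subunits, 6 of 9 regulators of spine actin and small GTPases, 2 of 7 postsynaptic adhesion genes and 1 of 2 neurexins were lower. Gphn (gephyrin) and Nsmf did not pass. This comparison sets 2 mice of the P209L line against 6 of the other lines.

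Mutants, which share no mouse with the controls, gave 21 members lower at 3 weeks (65.6%) and none higher, where 32.1% of all genes were lower and 13.9% higher. The 3-week mutants are P209L mice and the 8-week mutants KO and R206W mice, so the mutation differs along with age. The median difference was -0.52 against -0.16 over all genes, and 19 members lay wholly below the 8-week mutants and none wholly above, where 28.6% and 11.7% of all genes did. All 17 members that were lower in controls were among the 21, and Iqsec2, Nlgn2, Nlgn3 and Nrxn2 were the other 4. Past the threshold in neither comparison were Baiap2, Begain, Camk2b, Dlg3, Gphn, Homer3, Lrrtm1, Lrrtm3, Lrrtm4, Nsmf and Trio. In 9 members (Dlg2, Dlg4, Dlgap1, Dlgap2, Homer2, Synpo, Psd3, Sipa1l1 and Cnksr2) every 3-week mouse lay below every one of the 12 mice at 8 weeks, as did 10.2% of all genes. No member had all 3-week mice on the upper side, where 6.49% of all genes did.

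Scaling moved part of this. Median-of-ratios size factors brought the median of all genes close to 0 and left 16 members lower in controls, the 17 without Nlgn1, with 3 higher (Homer3, Begain and Nsmf). Of all genes, 22.6% were then lower and 21.5% higher. In mutants the same scaling gave 17 lower and 3 higher (Homer3, Begain and Lrrtm3), beside 25.4% and 26.0% of all genes. Without KO control 1, 23 members were lower in controls and none higher, where 37.4% of all genes were lower. Without P209L control 1 the count was 10, beside 13.2% of all genes, and without P209L control 2 it was 8, beside 11.7%. Cnksr2, Dlg2, Dlgap1, Dlgap2, Homer2, Lrrtm2, Psd3 and Sipa1l1 were lower past the threshold in controls in the main fit and under all 27 alternatives.

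**Figure D2:**
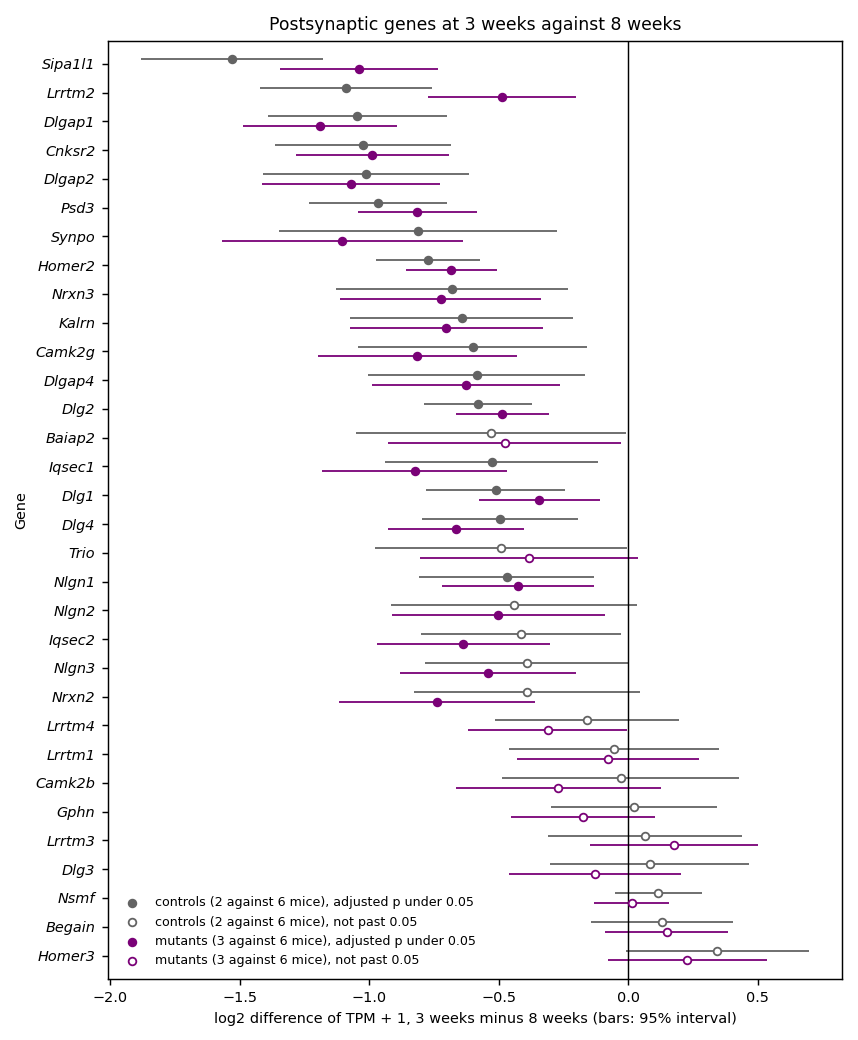
Differences between 3 and 8 weeks for each member on the log2 scale of TPM + 1, in controls (grey, 2 against 6 mice) and in mutants (purple, 3 against 6 mice), with 95% intervals and filled points where the adjusted p is under 0.05. Filled points lie only on the negative side, from Sipa1l1 at -1.53 in controls, and open points gather around 0 at the bottom.

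Among the regulators of spine actin and small GTPases, Sipa1l1 (SPAR, a GTPase-activating protein for Rap that binds PSD-95) had the largest difference of all members in controls. It stood at 45.0 and 51.6 TPM in the 3-week controls, and the 6 controls at 8 weeks had a lowest, median and highest value of 102, 149 and 170.4 TPM. The ages did not overlap. Sipa1l1 fell by 1.53 ± 0.17 (SE) on the log2 scale at 3 weeks relative to 8 weeks (adjusted p = 2.29e-05), to 34.7% of the 8-week level. Psd3, an exchange factor for Arf6, stood at 95.6 and 80.1 TPM at 3 weeks against 154, 179.8 and 183 TPM at 8 weeks, a log2 difference of -0.97 ± 0.13 (SE) with no overlap (adjusted p = 8.20e-05). Cnksr2, a scaffold of Ras signalling encoded on the X chromosome, stood at 48.2 and 46.1 TPM against 68.2, 104 and 108 TPM (-1.02 ± 0.16 (SE), adjusted p = 0.000278). These 3 genes were at 34.7% to 51.2% of their 8-week level. Synpo also did not overlap, at 59.9 and 56.9 TPM against 60.5, 112 and 125 TPM, but its lowest 8-week value, that of KO control 1, nearly touched the 3-week mice (log2 difference -0.81 ± 0.25 (SE), adjusted p = 0.021). Kalrn, at 163 and 171 TPM against 162, 281 and 321 TPM, was lower past the threshold (-0.64 ± 0.20 (SE), adjusted p = 0.0219), with KO control 1 below both 3-week controls.

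The scaffold adaptors split by gene. Dlgap1, a SAPAP adaptor between PSD-95 and the Shank proteins, stood at 105 and 106 TPM in 3-week controls and at 151, 233 and 246 TPM in 8-week controls (log2 difference -1.05 ± 0.16 (SE), adjusted p = 0.000267). Dlgap2, of the same family, stood at 19.3 and 18.4 TPM against 26.0, 42.3 and 44.4 TPM (-1.01 ± 0.19 (SE), adjusted p = 0.000932). In both genes the 2 ages were fully apart in controls and mutants. Homer2, one of the Homer proteins that bind group I metabotropic glutamate receptors and Shank, stood at 18.6 and 16.0 TPM against 26.6, 30.6 and 32.5 TPM (-0.77 ± 0.095 (SE), adjusted p = 5.90e-05). Homer3, of the same family, showed no such drop, with 6.50 and 7.03 TPM against 4.67, 5.14 and 5.48 TPM and both 3-week controls above all 8-week controls (0.34 ± 0.17 (SE), adjusted p = 0.118). Begain, a partner of PSD-95, had a difference of 0.13 ± 0.13 (SE) (adjusted p = 0.452).

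Among the MAGUK scaffolds, Dlg4 stood at 301 and 334 TPM in 3-week controls and at 354, 460.1 and 506 TPM in 8-week controls, a log2 difference of -0.49 ± 0.14 (SE) (adjusted p = 0.0138). Dlg2 (PSD-93) stood at 109.8 and 105 TPM against 144, 164 and 167 TPM (-0.58 ± 0.10 (SE), adjusted p = 0.000485). Dlg1 (SAP97) stood at 78.0 and 72.0 TPM against 86.8, 112 and 115 TPM (-0.51 ± 0.13 (SE), adjusted p = 0.00598). None of these 3 scaffolds overlapped between the ages in controls, although the Dlg1 difference in mutants missed the threshold after median-of-ratios scaling (adjusted p = 0.129). Dlg3 (SAP102), at 77.4 and 74.6 TPM against 46.2, 75.1 and 90.7 TPM, sat inside the 8-week range (0.082 ± 0.18 (SE), adjusted p = 0.75). Camk2g (the gamma subunit of CaMKII) was lower at 3 weeks (-0.60 ± 0.21 (SE), adjusted p = 0.0341). Camk2b, at 265 and 286 TPM against 172, 302 and 349.5 TPM, did not pass (-0.030 ± 0.21 (SE), adjusted p = 0.928), and its sign turned under median-of-ratios scaling.

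Of the postsynaptic adhesion genes, Lrrtm2 (a leucine-rich repeat protein that binds neurexins) had the second largest difference of all members in controls. It stood at 21.7 and 16.6 TPM in 3-week controls and at 34.2, 43.4 and 45.7 TPM in 8-week controls, with no overlap (-1.09 ± 0.16 (SE), adjusted p = 0.00015). In mutants the difference was -0.49 ± 0.13 (SE) (adjusted p = 0.00848) and, after median-of-ratios scaling, -0.31 (adjusted p = 0.0683). Its relatives Lrrtm1, Lrrtm3 and Lrrtm4 had differences of -0.055 ± 0.19 (SE), 0.065 ± 0.18 (SE) and -0.16 ± 0.17 (SE) in controls, none past the threshold. Nlgn1, the neuroligin of excitatory synapses, was lower (-0.47 ± 0.16 (SE), adjusted p = 0.0314), a call that was lost under median-of-ratios scaling (-0.33 (adjusted p = 0.0714)). Nlgn2, the neuroligin of inhibitory synapses, stood at 78.9 and 78.6 TPM against 62.6, 114 and 134 TPM (-0.44 ± 0.22 (SE), adjusted p = 0.136). Both 3-week values of Nlgn2 lay above KO control 1 and below the other 5 controls.

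On the presynaptic side, Nrxn3 was lower at 3 weeks, at 38.6 and 42.5 TPM against 40.2, 68.8 and 83.2 TPM (-0.68 ± 0.21 (SE), adjusted p = 0.0207). Nrxn2 stood at 115 and 120.3 TPM against 106, 163 and 179.9 TPM and passed only in mutants (-0.39 ± 0.21 (SE), adjusted p = 0.149 in controls, and -0.74 ± 0.18 (SE), adjusted p = 0.00361 in mutants). Whether the age difference itself differed between controls and mutants was not tested for any of these genes. Gphn, at 40.5 and 36.4 TPM against 25.7, 40.0 and 44.8 TPM, lay within the 8-week range (0.022 ± 0.15 (SE), adjusted p = 0.925). Nsmf was at 417 and 418 TPM in 3-week controls, above all 8-week controls (367, 386 and 403 TPM), a difference of 0.12 ± 0.079 (SE) that did not pass (adjusted p = 0.268).

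Some member genes share their locus with another gene, as far as the GENCODE M21 annotation (GRCm38) shows. Sipa1l1 (chr12:82169320-82451786, plus strand), Dlg4 (chr11:70016942-70047522, plus strand), Begain (chr12:109032187-109068217, minus strand) and Cnksr2 (chrX:157821436-158043294, minus strand) overlap no other annotated gene. Lrrtm1, Lrrtm2 and Lrrtm3 each lie inside an alpha-catenin gene on the opposite strand (Ctnna2, Ctnna1 and Ctnna3), Homer3 overlaps Ddx49 and Nrxn2 overlaps Slc22a12, also on opposite strands. The libraries were stranded, but the strand setting of the quantification is not given in the sources used here, so reads of these 5 pairs cannot be told apart with certainty. A further 12 members overlap a gene on their own strand, none of them protein-coding (Dlg1, Dlg2, Dlgap2, Gphn, Iqsec1, Kalrn, Lrrtm4, Nlgn1, Nlgn3, Nrxn3, Nsmf and Trio), and shared reads are uncertain there too.

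The promoters of members that moved together with age are shown from RefSeq (GRCm38.p6), as windows of 300 bases from 250 before to 50 after an annotated start. The table used held 46 windows for 24 of the 32 members. The TATA box was searched for as TATAAA, on both strands like the other motifs, and matches are printed in capitals. The GC box was written as GGGCGG in this search. The CCAAT box was looked for by that sequence of letters. For the cAMP response element the letters were TGACGTCA. Sipa1l1, Homer2 and Dlgap1 are shown because they were lower at 3 weeks in controls under every alternative, and Begain because it was not. The windows are, in order, chr12:82169766-82170065, plus strand, and chr12:82311099-82311398, plus strand, for the 2 Sipa1l1 starts, chr7:81692916-81693215, minus strand, and chr7:81706876-81707175, minus strand, for the 2 Homer2 starts, chr17:69968823-69969122, plus strand, for the outer Dlgap1 start and chr12:109068168-109068467, minus strand, for a start of Begain.
Sipa1l1 first start: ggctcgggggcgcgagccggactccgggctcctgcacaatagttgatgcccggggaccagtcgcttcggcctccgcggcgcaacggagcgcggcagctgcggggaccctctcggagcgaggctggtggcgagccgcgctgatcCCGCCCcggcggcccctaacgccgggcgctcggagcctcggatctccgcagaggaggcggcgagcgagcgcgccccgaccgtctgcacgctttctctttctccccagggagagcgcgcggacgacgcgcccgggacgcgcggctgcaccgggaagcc
Sipa1l1 second start: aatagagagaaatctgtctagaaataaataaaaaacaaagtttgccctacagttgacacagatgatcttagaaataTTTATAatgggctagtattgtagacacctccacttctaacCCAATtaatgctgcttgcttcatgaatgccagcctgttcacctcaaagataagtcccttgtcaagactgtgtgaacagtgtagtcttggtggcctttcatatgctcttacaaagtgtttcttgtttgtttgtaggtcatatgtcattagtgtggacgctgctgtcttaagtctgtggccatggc
Homer2 inner start: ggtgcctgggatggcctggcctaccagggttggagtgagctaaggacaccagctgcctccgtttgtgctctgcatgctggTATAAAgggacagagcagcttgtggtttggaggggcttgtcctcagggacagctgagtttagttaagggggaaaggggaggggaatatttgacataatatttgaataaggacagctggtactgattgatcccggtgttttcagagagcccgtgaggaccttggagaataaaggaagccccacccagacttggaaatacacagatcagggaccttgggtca
Homer2 outer start: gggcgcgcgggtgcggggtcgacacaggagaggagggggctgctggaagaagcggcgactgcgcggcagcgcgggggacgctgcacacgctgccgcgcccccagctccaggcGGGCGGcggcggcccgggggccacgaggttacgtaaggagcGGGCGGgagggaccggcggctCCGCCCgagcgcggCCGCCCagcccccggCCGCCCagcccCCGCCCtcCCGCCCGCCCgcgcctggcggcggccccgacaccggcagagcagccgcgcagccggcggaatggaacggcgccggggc
Dlgap1 outer start: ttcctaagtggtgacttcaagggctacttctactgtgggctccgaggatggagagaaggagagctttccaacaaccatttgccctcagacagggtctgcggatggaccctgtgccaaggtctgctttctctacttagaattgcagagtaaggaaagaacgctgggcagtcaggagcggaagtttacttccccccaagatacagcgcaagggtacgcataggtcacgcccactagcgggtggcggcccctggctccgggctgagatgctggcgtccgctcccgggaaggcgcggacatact
Begain: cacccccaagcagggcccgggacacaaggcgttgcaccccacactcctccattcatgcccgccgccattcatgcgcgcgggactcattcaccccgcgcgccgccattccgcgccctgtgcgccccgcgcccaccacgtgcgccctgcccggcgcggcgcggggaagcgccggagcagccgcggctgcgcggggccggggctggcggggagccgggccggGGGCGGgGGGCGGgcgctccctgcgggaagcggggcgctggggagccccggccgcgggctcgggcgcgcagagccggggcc

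The first Sipa1l1 window is 75.7% G and C with 48 CpG pairs and a single GC box, and the second, inside the gene, is 39.3% G and C with 1 CpG pair, a TATA box on the opposite strand and a CCAAT box. Both Homer2 windows differ in the same way, with 82.3% G and C and 8 GC boxes in the outer and 52.3% G and C and 1 TATA box in the inner. The Dlgap1 window holds none of the 4 motifs, and the Begain window has 81.3% G and C and 2 GC boxes. Over the 46 member windows a GC box was found in 54.3%, against 35.7% of the 32851 windows of all genes. The shares were 13.0% against 13.6% for the TATA box, 23.9% against 37.4% for the CCAAT box and 0.0% against 1.79% for the cAMP response element. Members lower at 3 weeks in controls (12 genes, 27 windows) had a GC box in 40.7% of windows and a median of 55.7% G and C. The other members (12 genes, 19 windows) had one in 73.7% and a median of 70.3%. Windows of one gene often overlap, and a match is a description of letters, with no test.

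Within gene families the make-up also differed between the 3-week and the 8-week mice, and such a share does not depend on how a library is scaled. The comparison pools controls and mutants, and all 3-week mice are of the P209L line, so age, line and genotype cannot be told apart in it. Each family's most abundant gene was tested by its share of the family's TPM in the 5 mice at 3 weeks against the 12 at 8 weeks, with an exact two-sided permutation test adjusted over 8 families, 7 of which are given. The smallest p this design allows is 0.000323. Dlgap1 made up 33.6% ± 1.61 (SD) of Dlgap TPM at 3 weeks and 40.0% ± 1.85 at 8 weeks, with no overlap (exact permutation test, adjusted p = 0.000862). The share of Dlgap4, given as a description, was 26.8% at 3 weeks and 22.1% at 8 weeks, also with no overlap. In the Camk2 family Camk2a (the alpha subunit, not a member) held 62.5% ± 2.82 (SD) against 71.5% ± 1.58 (exact permutation test, adjusted p = 0.000862), and the share of Camk2b was 23.1% against 15.4% with no overlap.

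Dlg4 held 54.4% of Dlg TPM at 3 weeks and 58.0% at 8 weeks with overlapping ranges (exact permutation test, adjusted p = 0.00672), a difference of -3.55 percentage points that was -1.64 in control mice only. The share of Dlg3 was 12.3% against 8.98%, with all 3-week mice above all 8-week mice. Lrrtm2 held 22.4% ± 2.88 (SD) of Lrrtm TPM against 32.5% ± 4.54 (exact permutation test, adjusted p = 0.00259), where Lrrtm3 held 30.2% against 23.1%. Homer1 (not a member) held 73.7% against 82.6% of Homer TPM (exact permutation test, adjusted p = 0.0384), a call that was lost when any of 10 of the 17 mice was left out, P209L control 1 and P209L control 2 among them. The shares of Nlgn2 (64.5% against 64.4%) and Iqsec1 (45.1% against 46.0%) did not pass (exact permutation test, adjusted p = 0.936 and 0.454).

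**Figure D3:**
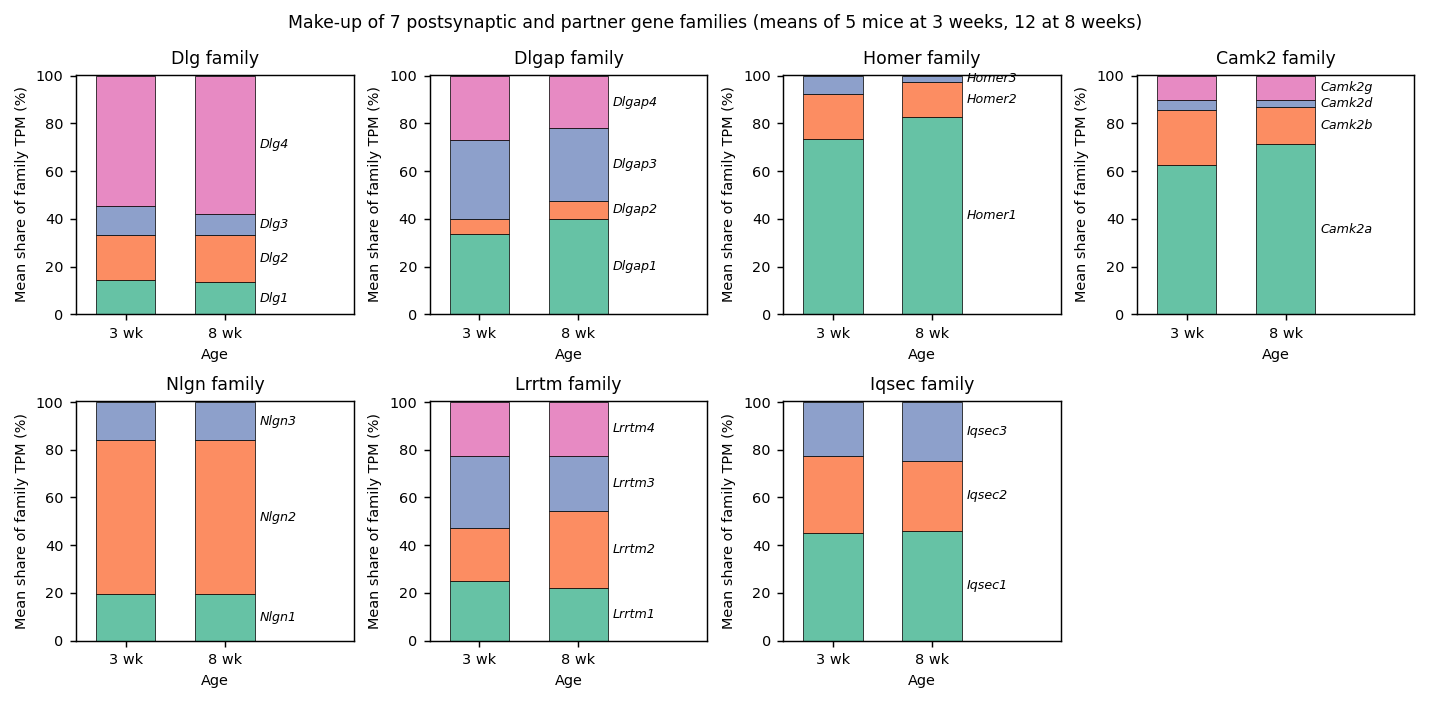
Stacked bars of the mean share (percent) of each gene in the summed TPM of its family, for 7 families, in the 5 mice aged 3 weeks and the 12 mice aged 8 weeks. The lowest block is smaller at 3 weeks in the Dlgap (33.6% against 40.0%) and Camk2 (62.5% against 71.5%) families and nearly equal in the Nlgn family.

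Markers of cell types moved between the same mice. In 3-week controls against 8-week controls, 7 of 10 oligodendrocyte markers were higher and none lower, with sums of 4269 to 6366 TPM against 2724 to 3809 TPM. Of the excitatory neuron markers 4 of 6 were lower (sums of 2588 to 2843 against 2406 to 4193 TPM), of the general neuron markers 2 of 4 (2207 to 2468 against 2478 to 4465 TPM) and of the astrocyte markers 3 of 6 (762 to 959 against 1017 to 1392 TPM). Of the inhibitory neuron markers 1 of 6 was lower and none higher (711 to 748 against 539 to 887 TPM). The excitatory list holds Camk2a, at 774 and 905 TPM against 963 to 1554 TPM, so its sum is not separate from the postsynaptic genes. All 5 blood markers were higher (2572 to 4884 against 696 to 1252 TPM), and 1 of the 2 P209L controls held choroid plexus markers at a sum of 1764 TPM. In mutants the excitatory neuron, general neuron, astrocyte, microglia and blood sums did not overlap between the ages. The inhibitory neuron sums did overlap (659 to 777 against 722 to 959 TPM), with 3 of 6 markers lower at 3 weeks and 1 higher. Of the markers 4 of 6 for excitatory neurons were lower at 3 weeks (sums of 1952 to 2715 against 3052 to 4430 TPM), 3 of 4 for neurons in general (2070 to 2480 against 3584 to 4229 TPM) and 4 of 6 for astrocytes (761 to 1089 against 1315 to 1501 TPM), and 2 of 5 blood markers were higher (1905 to 2837 against 560.1 to 1323 TPM). Oligodendrocyte sums were 2576 to 3680 TPM at 3 weeks and 2942 to 4116 TPM at 8 weeks, with 2 of 10 markers lower, and choroid plexus markers summed to at most 14.4 and 22.7 TPM. Microglia markers were lower at 3 weeks for 3 of 5 in mutants (128 to 154 against 186 to 265 TPM) and for 3 of 5 in controls (133 to 178 against 165 to 204 TPM). Endothelial markers were lower for 3 of 5 in mutants, and in controls 1 was lower and 1 higher. The part of these markers in the differences of the postsynaptic genes was not tested in either comparison, and in bulk tissue fewer neurons and less RNA per neuron cannot be told apart.

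The other genes of the postsynaptic and synaptic adhesion pathway, a list of 77 that were all tested, differed with age mostly in the same direction. In controls 45 were lower at 3 weeks (58.4%) and 2 higher (2.6%), Cbln1 and Lin7b, where 24.8% of all genes were lower and 11.3% higher. In mutants 50 were lower (64.9%) and 5 higher (6.49%), Cbln1, Ddn, Gabarap, Lin7b and Ppp1r9b, where 32.1% of all genes were lower and 13.9% higher. Ddn and Ppp1r9b were thus lower in controls and higher in mutants, with a mutant difference of 0.24 ± 0.084 (SE) (adjusted p = 0.0284) for Ppp1r9b and of 0.65 ± 0.088 (SE) (adjusted p = 6.21e-05) for Ddn. The 3-week mutants are P209L and the 8-week mutants KO and R206W, so genotype and age cannot be told apart here. Ppp1r9b stood at 580, 647 and 663 TPM in P209L mice, 780.1, 786 and 745 TPM in R206W mice and 348, 348 and 409 TPM in KO mice. Ddn stood at 1001, 1234 and 1036 TPM, at 1071, 953 and 919.7 TPM and at 441, 501 and 524 TPM in the same groups. Among the pathway genes with the smallest p in controls were Ppp1r9b (neurabin-2 or spinophilin, -0.76 ± 0.10 (SE), adjusted p = 7.78e-05) and Git1 (-1.17 ± 0.15 (SE), adjusted p = 8.18e-05).

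Loss of Hnrnph2 gave no difference in a postsynaptic gene that exceeded the spread between mice by limma. None of the 32 members passed in KO mice against their controls, where 0.00615% of all genes did, which was Hnrnph2 alone. The median member difference was 0.035, beside 0.064 over all genes. At an unadjusted p under 0.05 by limma there was 1 member, Lrrtm2, where 4.08% of all genes did. Lrrtm2 stood at 31.0, 38.3 and 22.9 TPM in KO mice and at 34.2, 45.7 and 38.7 TPM in controls, so the groups overlapped, with a difference of -0.37 ± 0.16 (SE) (adjusted p = 0.999) that ran from -0.54 (without KO 2) to -0.18 (without KO 3) when 1 mouse was left out. The next were Homer3 (5.41, 5.74 and 8.02 against 5.48, 5.35 and 4.94 TPM, 0.22 ± 0.17 (SE), adjusted p = 0.999) and Lrrtm4 (24.4, 27.7 and 26.8 against 16.3, 24.5 and 28.4 TPM, 0.22 ± 0.17 (SE), adjusted p = 0.999). The Lrrtm4 difference was -0.0057 without KO control 1. No member separated KO mice from controls without overlap, where 5.43% of all genes did so upwards and 0.824% downwards. Without KO control 1 the median member difference was -0.17, beside -0.059 over all genes, only 3 members lay above 0 and still none passed. With sample weights, of which KO control 1 had the smallest (0.082), 8 members passed and all 8 were lower, where 10.0% of all genes were lower and 3.15% higher. The 95% interval of a member reached a median of 0.38 to each side, and the lowest and highest bounds were those of Lrrtm2 (-0.70) and Camk2b (0.64).

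In R206W mice against their controls none of the 32 members passed, where 0.0369% of all genes did. The median difference was 0.036, beside 0.0096 over all genes, and 1 member had an unadjusted p under 0.05, where 2.19% of all genes did. That member was Sipa1l1. It stood at 196, 194 and 221 TPM in R206W mice and at 136, 148 and 149.9 TPM in their controls, so that every R206W mouse lay above every control. The difference was 0.49 ± 0.17 (SE) on the log2 scale with a 95% interval of 0.14 to 0.84 (adjusted p = 1.0 by limma). Without KO control 1 the adjusted p was 0.551, and in a fit of own groups only it was 0.138, both by limma. The R206W mice had the 3 highest values of Sipa1l1 among all 17 mice. Next came Psd3, at 157, 149 and 150.0 TPM in R206W mice and 179, 180.1 and 183 TPM in controls (-0.25 ± 0.13 (SE)), and Dlg4, at 529, 501 and 583 TPM and 484, 464 and 436 TPM (0.22 ± 0.14 (SE)). Both separated the groups and both had an adjusted p of 1.0. In all, 2 members were higher without overlap (Dlg4 and Sipa1l1) and 4 lower (Homer2, Psd3, Lrrtm2 and Nsmf), where 8.09% and 8.11% of all genes were.

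In P209L mice, at 3 weeks, none of the 32 members passed, where 0.0984% of all genes did. The median difference was 0.010, beside 0.016 over all genes. At an unadjusted p under 0.05 Sipa1l1 was again the single member, where 7.46% of all genes did. It stood at 71.2, 70.9 and 96.1 TPM in P209L mice and at 45.0 and 51.6 TPM in their controls, with no overlap and a difference of 0.69 ± 0.18 (SE) (95% interval 0.30 to 1.09, adjusted p = 0.264 by limma). It passed the threshold after median-of-ratios scaling (adjusted p = 0.012), with quantile normalization, with sample weights and without KO control 1, and its adjusted p ranged up to 1.0 when P209L control 2 was left out. Lrrtm2 stood at 24.7, 22.9 and 25.9 TPM against 21.7 and 16.6 TPM (0.35 ± 0.17 (SE), adjusted p = 0.701), and the difference was 0.53 without P209L control 1 and 0.17 without P209L control 2. Nsmf stood at 364, 386 and 366 TPM against 417 and 418 TPM (-0.17 ± 0.088 (SE), adjusted p = 0.738). Without overlap, 4 members were higher (Begain, Trio, Sipa1l1 and Lrrtm2) and 4 lower (Dlg3, Synpo, Iqsec1 and Nsmf), where 14.2% and 10.7% of all genes were. In the same comparison oligodendrocyte markers had a median difference of -0.84, blood markers of -0.68 and the 2 tested choroid plexus markers of -2.69, with none past the threshold, and their part was not tested.

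Sipa1l1 was the one member of which both knockin groups lay above their own controls without overlap, as did 1.56% of all genes. The mean of both knockin differences was 0.59 ± 0.12 (SE) (95% interval 0.33 to 0.85), and it missed the threshold (adjusted p = 0.0956 by limma). None of the 32 members passed in this comparison, where 0.178% of all genes did, and 1 had an unadjusted p under 0.05, where 5.32% of all genes did. Over 27 alternatives Sipa1l1 passed in 9, with adjusted p-values from 0.000713 to 0.315. Nsmf came next, with a mean knockin difference of -0.12 ± 0.059 (SE) (adjusted p = 0.971), and then Begain with 0.16 ± 0.10 (SE) (adjusted p = 1.0). Both knockin groups lay below their own controls without overlap in Nsmf. Of all genes, 8.11% did so in R206W mice and 10.7% in P209L mice. The share that did so in both is not given, so this cannot be read alone. In KO mice Sipa1l1 stood at 122, 123 and 145 TPM against 102, 150.1 and 170.4 TPM in controls (-0.082 ± 0.17 (SE), adjusted p = 0.999), and the KO values fell inside the control range. The difference between the R206W and KO effects was 0.57 ± 0.23 (SE) for Sipa1l1 (95% interval 0.075 to 1.07, adjusted p = 1.0), and 0.79 without KO control 1. No member passed in that test, where 0.0307% of all genes did, and Sipa1l1 was the 1 member with an unadjusted p under 0.05, where 2.29% of all genes did. Lrrtm2 and Psd3, the next by p, had differences between the effects of 0.24 ± 0.22 (SE) and -0.24 ± 0.18 (SE) (adjusted p = 1.0 for each).

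**Figure D4:**
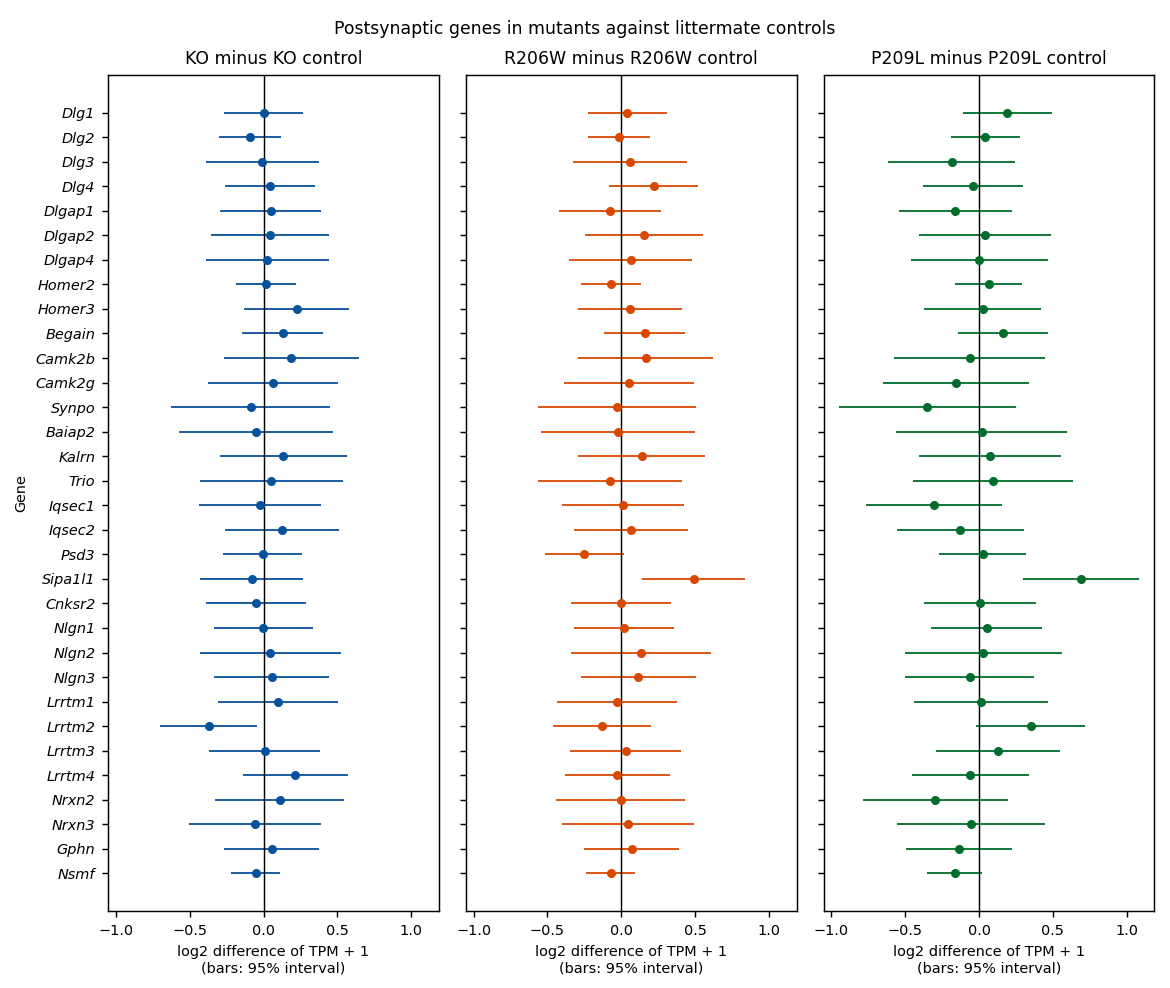
Differences between mutants and their littermate controls for the 32 members on the log2 scale of TPM + 1, with 95% intervals, for KO, R206W and P209L in 3 panels. Nearly all intervals cross 0, and Sipa1l1 lies to the right of 0 in the R206W (0.49) and P209L (0.69) panels but not in the KO panel (-0.082).

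**Figure D5:**
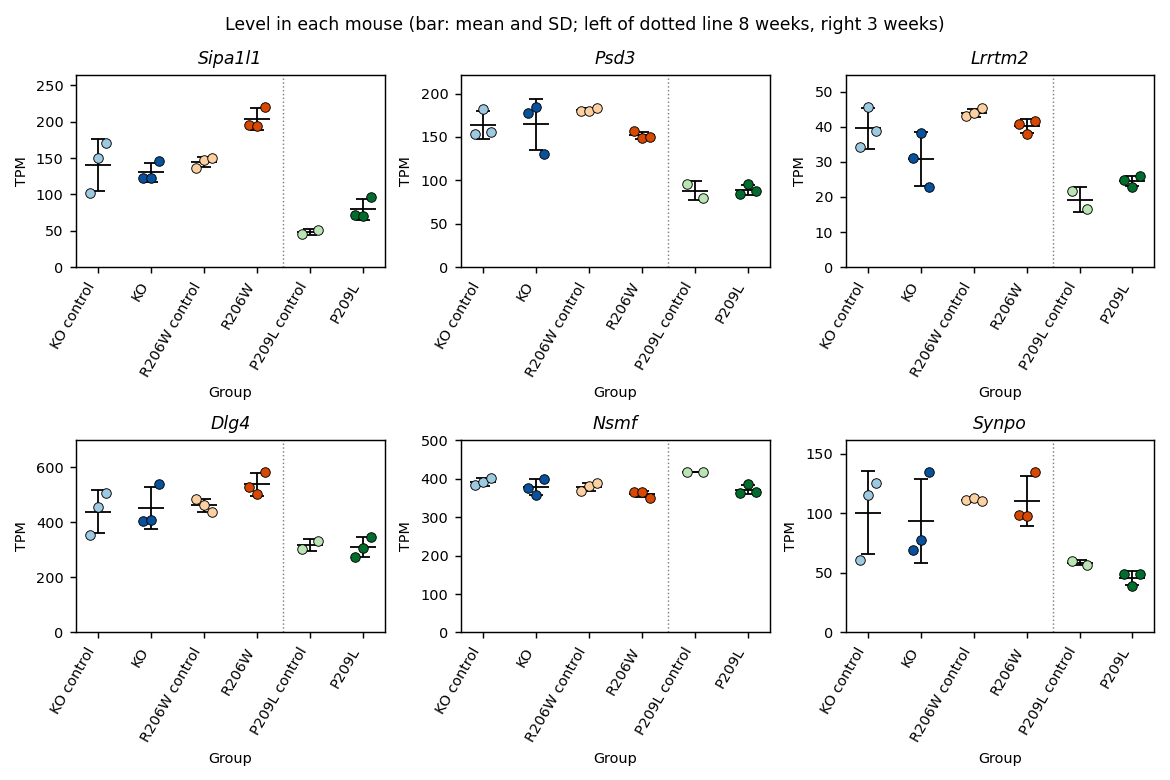
TPM in each mouse for 6 members by group, with the mean and SD of the group; groups left of the dotted line are 8 weeks old and groups on the right 3 weeks old. Sipa1l1 is highest in the R206W mice and higher in P209L mice than in their controls, and Psd3, Lrrtm2, Dlg4 and Synpo are lower at 3 weeks, unlike Nsmf.

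Among the 77 other pathway genes, changes in the knockin mice were few and upward. None passed in KO mice. Ddn (dendrin, a postsynaptic protein whose mRNA is found in dendrites) and Ppp1r9b, which targets protein phosphatase 1 to spines, rose in both R206W and P209L mice, and Shank1 joined them in the mean of both (3 of 77). These are 2.6%, 2.6% and 3.9% of the list, where 0.0369%, 0.0984% and 0.178% of all genes passed. The list was chosen with earlier results of these data known, so finding these genes in it is no independent result. Ppp1r9b rose by 1.08 ± 0.10 (SE) in R206W mice (adjusted p = 7.17e-05) and by 1.52 ± 0.11 (SE) in P209L mice (adjusted p = 2.49e-06). Ddn rose by 0.92 ± 0.10 (SE) (adjusted p = 0.000626) and by 1.67 ± 0.11 (SE) (adjusted p = 2.49e-06). On the same scale Sipa1l1 had 0.49 and 0.69, and the difference between these genes was not tested.

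Finally, the controls of the R206W and KO lines, of the same age and strain, were compared as a measure of the differences between lines. None of the 32 members passed, where 0.0% of all genes did, and 1 had an unadjusted p under 0.05 by limma (Lrrtm4, 0.37 ± 0.17 (SE)), where 3.12% of all genes did. The difference was above 0 for 30 of the 32 members, with a median of 0.16 beside 0.13 over all genes. Homer2 and Lrrtm3 were higher in the R206W controls without overlap, as were 8.43% of all genes. Lrrtm1 and Lrrtm3 had the next smallest p, with differences of 0.37 ± 0.19 (SE) and 0.30 ± 0.18 (SE). With 1 mouse left out, the differences ran from 0.14 to 0.53 for Lrrtm4, from 0.14 to 0.55 for Lrrtm1 and from 0.053 to 0.43 for Lrrtm3. Without KO control 1 the median was -0.063, with 11 of 32 members above 0, so the upward direction rested on that mouse.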

How the data were processed

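Total RNA from the cortex of 17 mice was measured by stranded RNA-Seq, and the authors deposited a single table of TPM values by gene symbol, with a column for each mouse. The submitters' processing notes name Trim Galore, STAR 2.7.1a, RSEM, GATK 4.0.4.0 and the build mm10, without saying which made the table. The annotation is not given in the sources used here. Columns summed to 1000000 within rounding, so TPM carries no sequencing depth, and every value depends on the other transcripts of its library. No column was left unused. The table also held 120 repeated entries of a symbol, none of them for a member, which were summed.

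Genes with a mean of at least 1 TPM were tested on log2(TPM + 1) with limma 3.58.1 in R 4.3.3 (a mean for each of the 6 groups, trended empirical Bayes, two-sided), with Benjamini-Hochberg adjustment over 16265 genes. Family shares were compared by exact permutation in scipy 1.17.1, and 1 of the 8 families is not reported here. The code was tested on simulated data. Groups and replicate numbers follow the labels. Same-numbered mice did not deviate together in every pair, so the replicate number is a term only in an alternative. Members, gene lists and tests were chosen with earlier results of these data known. Values are given for members past the threshold between mutants and controls, otherwise for the 3 with the smallest p, for up to 12 with the smallest p between ages, and for the most abundant member of each role. Other members were given by value to complete a family, which was decided with their values known. The alternatives were another pseudocount, other filters on low values, median-of-ratios and quantile scaling, removal of mitochondrial genes, fits of own groups only, the replicate block, sample weights and leaving out each mouse. Gene coordinates are from GENCODE M21 (GRCm38) and promoters from RefSeq (GRCm38.p6).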

Additional observations from a re-analysis of the deposited data

Results flagged for a closer look

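No member of the postsynaptic list differed between the R206W and KO effects by the test of that difference. Of the 77 other pathway genes 2 did (2.6%), where 0.0307% of all genes did. That list was chosen with earlier results of these data known. The R206W effect minus the KO effect was 1.10 ± 0.14 (SE, log2 scale) for Ppp1r9b (adjusted p = 0.00406 by limma) and 0.94 ± 0.14 (SE) for Ddn (adjusted p = 0.0273). Ppp1r9b stood at 780.1, 786 and 745 TPM in the R206W mice and at 348, 348 and 409 TPM in the KO mice. The Ppp1r9b call held in the main fit and under all 27 alternatives, and the Ddn call held in 13 of these 28 fits.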

How the results depend on the processing

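The groups held 2 or 3 mice each, TPM values carry no depth, and age and line are the same split for the P209L mice. Leaving out 1 of the 2 P209L controls leaves a lone mouse that is assumed to vary like the other groups. The cause of each shift below was not tested. Members called in KO mice numbered 8 with sample weights, at a median of -0.21. The same weights called 1 member (Sipa1l1) in R206W mice and 1 in the difference between the R206W and KO effects. In P209L mice 1 was called with median-of-ratios scaling (with and without KO control 1, the latter chosen after seeing the data), quantile normalization and sample weights, and in the mean of both knockins 1 under these 4, with mitochondrial genes removed and in a fit of own groups only. With no filter on low values 10 members were lower at 3 weeks in controls. The share over all genes in that fit is not given, so the count cannot be read alone. The median difference between R206W and KO controls was -0.065 with median-of-ratios scaling and without KO control 1. Camk2b between ages in controls turned to 0.11 with median-of-ratios scaling and to 0.031 with that scaling and without KO control 1, and Gphn to -0.064 with sample weights. In control mice only, where 2 against 6 mice cannot pass, the shares differed by -1.64 (Dlg4), -6.82 (Dlgap1), -14.8 (Homer1), -6.57 (Camk2a), -14.7 (Lrrtm2) and 0.22 (Iqsec1) percentage points.

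Over the fits that left out 1 mouse, members called at 3 weeks in controls ranged from 8 (without P209L control 2) to 23 (without KO control 1), and in mutants from 18 to 24. Members called in P209L mice ranged from 0 to 1 (without KO control 1), and in the mean of both knockins from 0 to 1 (without KO control 1 or KO control 3). Median member differences ranged from -0.17 to 0.18 for KO mice, from -0.12 to 0.26 for the difference between the R206W and KO effects and from -0.063 to 0.32 between the 8-week controls, with KO control 1 left out at -0.17, 0.26 and -0.063. The Homer1 share differed by -12.6 to -6.57 and lost its call without KO control 2, KO control 3, any R206W control, R206W 3, either P209L control, P209L 2 or P209L 3. The Nlgn2 share differed by -0.36 to 0.69. Camk2b between ages in controls ranged from -0.18 to 0.072, Gphn from -0.089 to 0.097 and Lrrtm4 in KO mice from -0.0057 to 0.38.

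Same-numbered mice of the KO line correlated at 0.12, -0.058 and 0.33 in their deviations from the group means, and those of the R206W line at -0.028, -0.030 and -0.11. The numbers were therefore not used as pairs in the main fit, although such correlations cannot show whether the mice were paired. With the replicate block, 16 members were lower at 3 weeks in controls and 22 in mutants. The shares over all genes in that fit are not given, so these counts cannot be read alone. In the same fit 1 member (Sipa1l1, adjusted p = 0.0279 by limma) was called in the mean of both knockins and Camk2b between ages turned to 0.087. No other comparison of mutants with controls gained a member.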
